A study of Homo sapiens with 8 samples.

Results

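Toll-like receptors bind molecules that microbes or damaged cells release, and they are central to how monocytes and macrophages start an inflammatory response. The genes described here are TLR1 to TLR8 together with CD14 and LY96, 10 of the 57992 genes in the Molm13 table, found in the table by their symbols. All 10 were matched by identifier to the THP1 table, and 57722 genes are listed in both. Expression was measured by bulk RNA-seq of polyadenylated RNA in Molm13 and THP1 cells, established human acute myeloid leukemia (AML) lines of monocytic type with KMT2A fusions. The cells carried a doxycycline-inducible hairpin, either a control (shCtrl) or one against PRMT9 (shPRMT9), an enzyme that methylates arginines in proteins. Each of the 4 groups (Molm13 shCtrl, Molm13 shPRMT9, THP1 shCtrl and THP1 shPRMT9) held 2 libraries, 8 in all, and each line is a single model of its kind. The letters OCI appear in the library names of the THP1 groups, although every other label gives THP1. Libraries 1 and 2 of a shPRMT9 group were taken to be replicates, and the study's hairpins against PRMT9 bear the same numbers. No source states that replicates came from separate cultures, so the p-values measure the spread between these libraries, which may be technical.

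The receptors divide by place and ligand. TLR2 sits on the cell surface and pairs with TLR1 or TLR6 to detect bacterial lipopeptides, TLR4 detects lipopolysaccharide once LY96 (also called MD-2) is bound to it, CD14 hands lipopolysaccharide to that complex, and TLR5 detects flagellin. TLR3, TLR7 and TLR8 sit in endosomes, where TLR3 binds double-stranded RNA and TLR7 and TLR8 respond to single-stranded RNA. Most of them signal through the adaptor MYD88 and the IRAK kinases to NF-κB, whereas TLR3, and TLR4 after uptake, use the adaptor TICAM1 (TRIF) to reach interferon regulatory factors.

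RefSeq promoter windows (GRCh38.p14, 250 bases before to 50 bases after a start site, 300 bases in all) were found for 7 of the 10 genes, TLR2, TLR3, TLR4, TLR5, TLR6, TLR8 and CD14. Shown are the stretches upstream of TLR2 and TLR4, the most highly expressed of the family in THP1, and of TLR8, an endosomal receptor that rose in THP1. Each is on the plus strand and is cut where the RefSeq start or the deposited gene begins. TLR2 is chr4:153684030-153684279, TLR4 is chr9:117704153-117704331 and TLR8 is chrX:12906370-12906619. Capitals mark matches to the motifs described in the next paragraph.
TLR2: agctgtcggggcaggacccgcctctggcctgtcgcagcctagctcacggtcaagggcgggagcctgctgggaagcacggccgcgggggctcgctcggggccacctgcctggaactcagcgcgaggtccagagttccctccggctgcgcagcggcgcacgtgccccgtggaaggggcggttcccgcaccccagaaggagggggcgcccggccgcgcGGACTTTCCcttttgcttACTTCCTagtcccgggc
TLR4: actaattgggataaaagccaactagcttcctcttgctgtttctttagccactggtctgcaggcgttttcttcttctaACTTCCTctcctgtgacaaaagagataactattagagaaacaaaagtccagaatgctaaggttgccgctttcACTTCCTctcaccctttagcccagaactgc
TLR8: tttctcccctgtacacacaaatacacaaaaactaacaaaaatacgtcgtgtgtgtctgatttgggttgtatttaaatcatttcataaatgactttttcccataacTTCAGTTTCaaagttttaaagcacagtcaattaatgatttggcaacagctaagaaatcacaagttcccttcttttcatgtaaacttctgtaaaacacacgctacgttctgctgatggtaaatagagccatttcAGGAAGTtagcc

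The motifs were searched on both strands by their letters alone. PU.1 (AGGAAGT) was found in 8.24% of all 35116 RefSeq promoter windows, the core of the interferon-stimulated response element (GAAANNGAA) in 8.11%, the interferon gamma-activated sequence GAS (TTCNNNGAA) in 7.66%, a C/EBP motif (TTGCNNCAA) in 1.98% and an NF-κB motif (GGANTTTCC) in 1.64%. The TLR4 window held 2 PU.1 matches, at bases -173 to -167 and -101 to -95 from the RefSeq start. The TLR2 window held an NF-κB match at -35 to -27 and a PU.1 match at -17 to -11. In the TLR8 window, a response element match lay at -145 to -137 and a PU.1 match at -12 to -6. The TLR3 window, not shown, held a response element match across the start site from -3 to 6 and 2 GAS matches, and that of CD14 held 1 GAS match. No motif was matched in the windows of TLR5 and TLR6, and the C/EBP motif was found in none of the 7. The deposited TLR2 gene starts 17220 bases downstream of the RefSeq start used here, so this window belongs to a start that lies outside the deposited gene. A match is a run of letters and was not tested for binding.

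Libraries totaled 18720950 to 27356870 counts, with TMM factors from 0.989 to 1.017. PRMT9 was checked first. It had 332 and 289 counts in the Molm13 shCtrl libraries and 41 and 56 in shPRMT9, a log2 fold change of -2.68 (SE 0.135, adjusted p = 1.2e-21), and in THP1 317 and 352 counts became 60 and 68 (-2.29, SE 0.131, adjusted p = 3.5e-14). The myeloid identity of both lines was seen in LYZ, SPI1, CEBPA and CD33, each over 1000 counts in every library, while the T cell genes CD3D, CD3E and CD2 had at most 3. PAX5, a B cell factor, had 866 and 829 counts in Molm13 shCtrl. Monocyte genes were uneven, and FCN1 and MRC1 had at most 5 counts in any library. S100A8 had 585 and 628 counts in Molm13 shCtrl and 184 and 234 in THP1 shCtrl. S100A9 had 670 and 673 in Molm13 shCtrl and 456 and 450 in THP1 shCtrl. VCAN had 8 and 10 counts in Molm13 shCtrl and 1098 and 1192 in THP1 shCtrl.

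Per length of exon, as reads per kilobase scaled to the TMM-adjusted library total (RPKM), TLR2 was the highest of the 10 genes in every group. In Molm13 shCtrl it stood at 4.5 ± 0.0141 RPKM (SD, n = 2), followed by TLR6 (1.97 ± 0.17), TLR1 (1.76 ± 0.0919), LY96 (1.68 ± 0.361) and TLR4 (0.798 ± 0.179). The range of LY96 overlapped those of TLR1 and TLR6. CD14, TLR8, TLR3, TLR5 and TLR7 followed at means of 0.134 RPKM or less, and each overlapped the next in this order. In THP1 shCtrl, TLR2 reached 25.1 ± 0.707 RPKM and TLR4 16.6 ± 0.354. TLR6 came next at 1.32 ± 0.12, and the others were below 1 RPKM, from LY96 at 0.804 ± 0.0467 down to TLR7 and TLR3, whose ranges overlapped.

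With shPRMT9 the order changed around LY96 and CD14. In Molm13 shCtrl, LY96 had the fourth highest mean, with a range that overlapped those of TLR1 and TLR6. In Molm13 shPRMT9 it was in the second place, apart from both, at 5.06 ± 0.297 RPKM against 5.86 ± 0.12 for TLR2. In THP1, LY96 (3.76 ± 0.431 RPKM) and CD14 (2.52 ± 0.12 RPKM) took the third and the fourth place in shPRMT9, above TLR6 at 1.92 ± 0.0919, whereas in shCtrl both were below TLR6. TLR4 kept the second place in THP1 and the fifth in Molm13. TLR3 and TLR7 remained at or below a mean of 0.169 RPKM in every group.

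**Figure D1:**
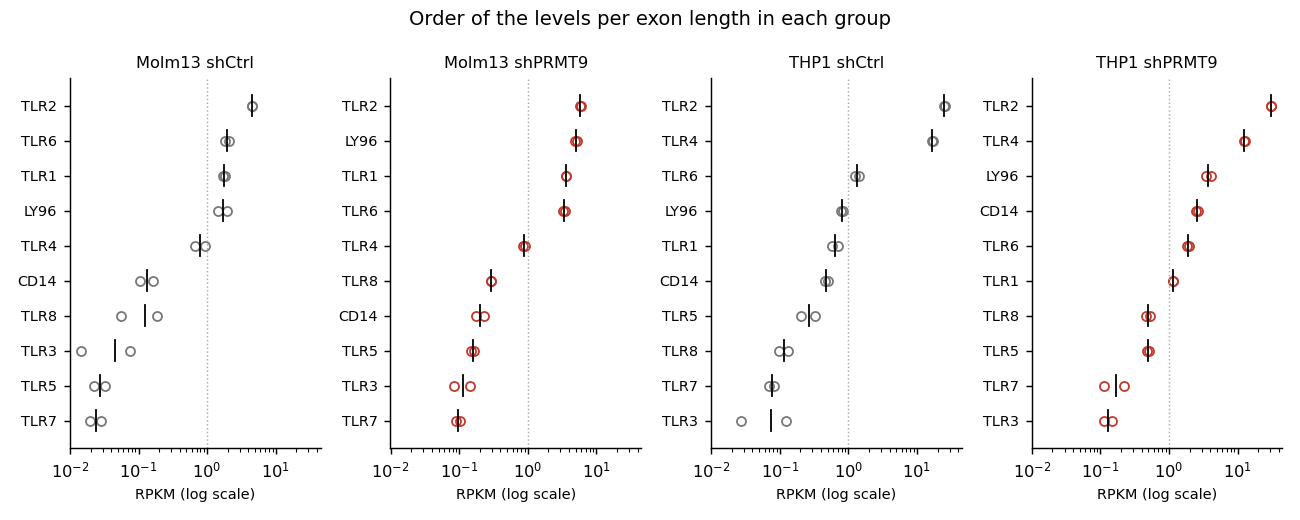
RPKM (log scale) of the 10 genes in each group, ordered by group mean; circles are the 2 libraries, black ticks the mean, and the dotted line 1 RPKM. TLR2 leads in all 4 groups, TLR4 is second in THP1 only, and CD14 lies below TLR6 in THP1 shCtrl and above it in THP1 shPRMT9.

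Across the family, LY96 and TLR1 rose with shPRMT9 past every limit in both lines. A gene was tested where its counts passed the filter for low values, and it is said to rise or fall where its adjusted p (edgeR's quasi-likelihood test, Benjamini-Hochberg over all genes tested) was below 0.05. In Molm13, 8 of the 10 genes were tested, of which 7 rose and 0 fell, against 33.4% of all 16446 genes tested that rose and 33.5% that fell. In THP1 all 10 were tested, 8 rose and 1 fell, against 19.0% and 18.6% of 16294. The median log2 fold change of those tested was 1.16 in Molm13 and 0.862 in THP1, where the median of all genes was 0.000472 and -0.000631. For TLR3, TLR5 and TLR8 in Molm13 and TLR3 and TLR7 in THP1, shPRMT9 had both libraries over the filter's limit and shCtrl did not. These counts and medians are therefore a description. In bulk samples, fewer cells that express a gene and less of its RNA per cell cannot be told apart.

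The study's rule for a differentially expressed gene (DEG) also asks for a fold change above 1.5 in either direction and an RPKM above 1 in at least 1 library. In Molm13 it was met by TLR1, TLR6 and LY96, 3 genes, all higher in shPRMT9, where 11.4% of all genes tested were DEGs that rose and 11.3% DEGs that fell. In THP1 it was met by TLR1, CD14 and LY96, again 3 genes and all higher, against 3.83% and 2.39%. Without the RPKM minimum, 6 genes in each line passed, adding TLR3, TLR5 and TLR8 in Molm13 and TLR5, TLR7 and TLR8 in THP1, and 16.3% of all genes in Molm13 and 5.78% in THP1 passed as higher. For all additions in Molm13 and TLR7 in THP1, shPRMT9 had both libraries over the filter's limit and shCtrl did not. This favors a rise, and nothing is read from the count of 6 genes. The 4 libraries of a line did not overlap between groups for 7 of the 8 genes tested in Molm13 and 9 of the 10 in THP1, but this also held for 81.9% and 66.0% of all genes tested. The study placed LY96 in a signature that it chose on these libraries, so its rise here is no independent evidence.

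**Figure D2:**
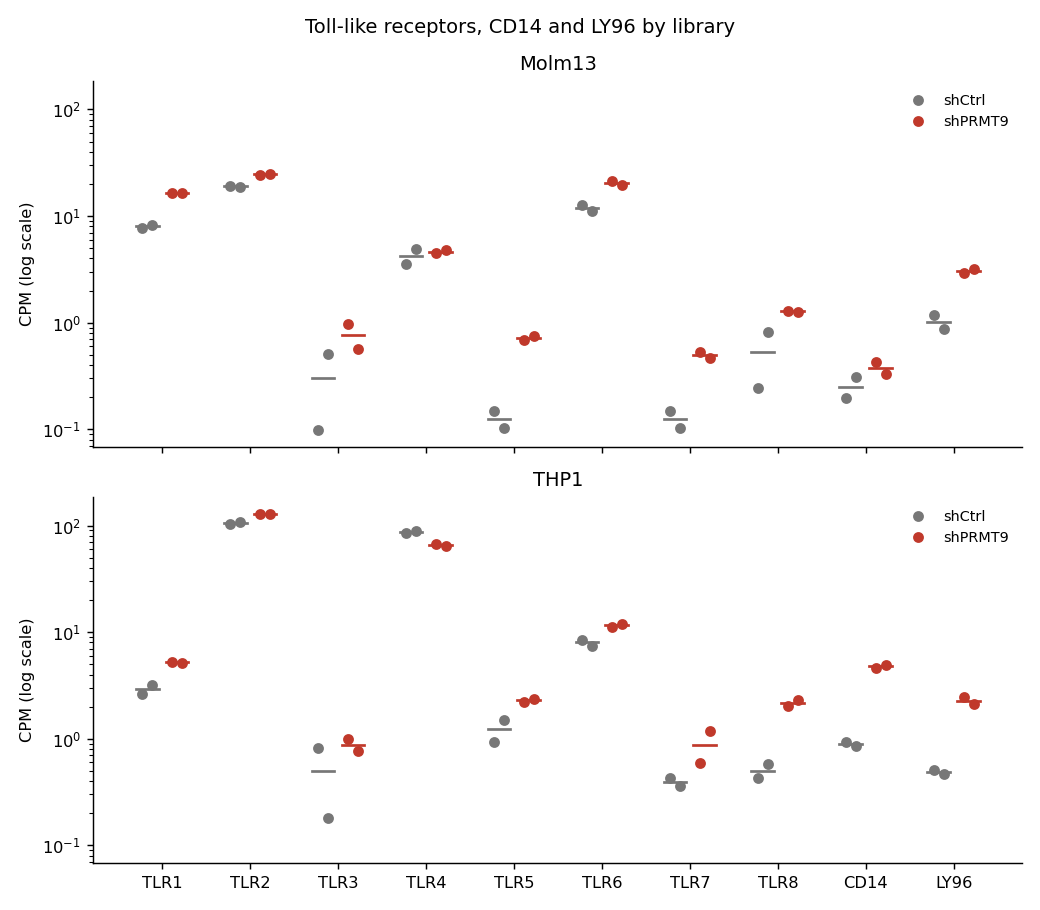
CPM (counts scaled to the TMM-adjusted library total, log scale) of each gene in the 4 Molm13 libraries (top) and the 4 THP1 libraries (bottom). Points are libraries and horizontal lines group means. Levels should be compared within a gene, since CPM is not set per length; the shPRMT9 points of LY96 and TLR1 lie above the shCtrl points in both lines, and those of TLR4 lie below them in THP1.

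**Figure D3:**
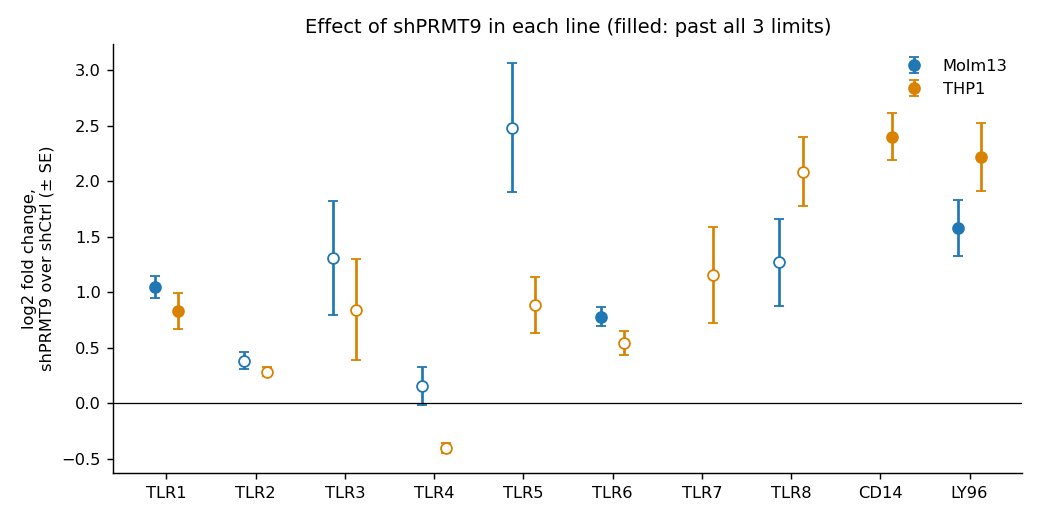
Log2 fold change of shPRMT9 over shCtrl (± SE) from the fit of each line; filled points met the FDR, fold change and RPKM limits. TLR7 and CD14 have no Molm13 point because they were not tested there, and TLR4 in THP1 (-0.41) is the only point below 0.

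Among the lipopeptide receptors, TLR1 rose in both lines, TLR6 rose in both but met the DEG rule only in Molm13, and TLR2 rose by a smaller fold in both. TLR1 (ENSG00000174125, chr4:38790677-38856817, minus strand) had 157 and 162 counts in Molm13 shCtrl and 307 and 351 in shPRMT9. Both shPRMT9 libraries were above both controls, at 16.5 ± 0.057 against 7.99 ± 0.418 CPM (log2 fold change 1.04, SE 0.0983, adjusted p = 9.8e-13). In THP1, 67 and 89 counts became 132 and 128, again without overlap (0.83, SE 0.161, adjusted p = 0.00013).

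TLR6 (ENSG00000174130, chr4:38823715-38856817, minus strand) had 258 and 218 counts in Molm13 shCtrl and 396 and 420 in shPRMT9 (0.78, SE 0.087, adjusted p = 1.2e-10). In THP1 it had 218 and 208 counts in shCtrl and 282 and 298 in shPRMT9. The groups were apart in both lines, and in THP1 the log2 fold change of 0.54 (SE 0.106, adjusted p = 0.00015) was short of a fold change of 1.5. There it passed that limit without shCtrl library 1 or without shPRMT9 library 1. The difference between the lines in the effect on TLR6 was -0.23 (THP1 minus Molm13, SE 0.141, adjusted p = 0.21), so the lines were not shown to differ.

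The 2 genes lie on the same strand, and their spans overlap by 33103 bases in the deposited annotation. Of the 50-base windows of a TLR1 transcript in GENCODE 29, 8.5% also occur in another gene, all of these in TLR6, and of those of a TLR6 transcript 5.23% do, most of them in TLR1. Reads from such stretches cannot be assigned to one of them, and the counts of TLR1 and TLR6 are uncertain to that extent.

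TLR2 (ENSG00000137462, chr4:153701500-153705699, plus strand) had 387 and 369 counts in Molm13 shCtrl and 454 and 532 in shPRMT9, a mean of 18.9 ± 0.0667 against 24.6 ± 0.514 CPM. In THP1 it had 2647 and 2984 counts in shCtrl and 3212 and 3207 in shPRMT9. Its groups did not overlap in CPM, and it rose 1.3-fold in Molm13 (log2 fold change 0.38, SE 0.0731, adjusted p = 1.2e-05) and 1.22-fold in THP1 (0.28, SE 0.0395, adjusted p = 1.2e-06), both short of the fold change limit.

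The lipopolysaccharide receptor genes moved apart in THP1, where LY96 and CD14 rose and TLR4 fell. LY96 (ENSG00000154589, on the plus strand of chromosome 8) had 24 and 17 counts in Molm13 shCtrl and 55 and 68 in shPRMT9, all controls below all shPRMT9 libraries. Its log2 fold change was 1.58 (SE 0.255, adjusted p = 6e-07). In THP1 it had 13 counts in each shCtrl library and 62 and 52 in shPRMT9, a change from 0.488 ± 0.0281 to 2.28 ± 0.26 CPM (2.22, SE 0.303, adjusted p = 9.6e-07). The difference between the lines in the effect on LY96 was 0.65 (SE 0.435, adjusted p = 0.25), so the lines were not shown to differ.

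CD14 (ENSG00000170458, chr5:140631728-140633701, minus strand) had 24 counts in each THP1 shCtrl library and 116 and 122 in shPRMT9. This was a rise from 0.901 ± 0.052 to 4.76 ± 0.217 CPM (log2 fold change 2.40, SE 0.213, adjusted p = 3.7e-10). In Molm13, CD14 had 4 and 6 counts in shCtrl and 8 and 7 in shPRMT9, too few for the test in that line. In a fit of all 8 libraries its change in Molm13 was 0.57 (SE 0.591, adjusted p = 0.44). The effect on CD14 was larger in THP1, by 1.84 on the log2 scale (SE 0.689, adjusted p = 0.024). That difference was 1.45 without Molm13 shCtrl library 2 (adjusted p = 0.26) and 1.61 without Molm13 shPRMT9 library 2 (adjusted p = 0.089), with adjusted p from 0.00953 to 0.263 over all alternatives.

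TLR4 (ENSG00000136869, chr9:117704332-117716871, plus strand) fell in THP1, from 2203 and 2468 counts in shCtrl to 1699 and 1598 in shPRMT9. Both shPRMT9 libraries were below both controls, at 65.9 ± 2.2 against 87.4 ± 1.98 CPM. The log2 fold change was -0.41 (SE 0.0459, adjusted p = 3.5e-08), short of the fold change limit. In Molm13 the groups overlapped, with 72 and 95 counts in shCtrl and 84 and 102 in shPRMT9 (0.15, SE 0.168, adjusted p = 0.43). The effect on TLR4 differed between the lines by -0.55 (SE 0.163, adjusted p = 0.0036). Without Molm13 shCtrl library 1, which held the 72 counts, the difference was -0.36 (adjusted p = 0.13), with adjusted p from 0.000352 to 0.132 over all alternatives.

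TLR5 rose in THP1 from low counts, its Molm13 controls held 3 counts or fewer, and its RPKM stayed below 1 in both lines. TLR5 (ENSG00000187554, chr1:223109406-223143282, minus strand) had 3 and 2 counts in Molm13 shCtrl and 13 and 16 in shPRMT9. The ratio of the pooled counts, scaled to TMM-adjusted library totals, was 5.8 (exact 95% interval 2.22 to 19.2, for counting error only). The fit gave an adjusted p of 0.00024. It passed the filter in Molm13 through the shPRMT9 libraries alone, so this p is a description. In THP1, 24 and 42 counts became 55 and 59 (log2 fold change 0.88, SE 0.255, adjusted p = 0.0068), and without shCtrl library 1 the value was 0.59 (adjusted p = 0.12), with adjusted p from 0.00095 to 0.122 over all alternatives. The difference between the lines in the effect on TLR5 was -1.59 (SE 0.693, adjusted p = 0.056), which did not pass. It was -1.92 without THP1 shCtrl library 1 (adjusted p = 0.019) and -1.69 without THP1 shPRMT9 library 2 (adjusted p = 0.0495), with adjusted p from 0.0191 to 0.21 over all alternatives.

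The endosomal receptors were low throughout, and of these TLR8 rose in THP1. TLR8 (ENSG00000101916, chrX:12906620-12923169, plus strand) had 11 and 16 counts in THP1 shCtrl and 51 and 57 in shPRMT9, with no overlap (2.09, SE 0.307, adjusted p = 3e-06). In Molm13 it had 5 and 16 counts in shCtrl and 24 and 27 in shPRMT9 (1.27, SE 0.393, adjusted p = 0.0044), and its controls lay further apart from each other than its shPRMT9 libraries. In Molm13, shPRMT9 had both libraries over the filter's limit and shCtrl did not, so this p is given as a description. Without Molm13 shCtrl library 1, which held the 5 counts, the Molm13 value was 0.63 (adjusted p = 0.22), with adjusted p from 0.000208 to 0.219 over all alternatives. TLR8-AS1, an antisense gene that overlaps TLR8, had 0 or 1 counts in every library, and RNU6-1082P, which lies within TLR4, had 0.

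TLR7 (ENSG00000196664, chrX:12867083-12890380, plus strand) had 11 and 10 counts in THP1 shCtrl and 15 and 29 in shPRMT9 (1.15, SE 0.43, adjusted p = 0.035). In THP1, shPRMT9 had both libraries over the filter's limit and shCtrl did not, so this p is a description. Most of this rests on shPRMT9 library 2, without which the value was 0.59 (adjusted p = 0.53). The call was also lost without either control library, with values of 1.28 and 1.02 and adjusted p of 0.087 and 0.18, and adjusted p ran from 0.00785 to 0.53 over all alternatives. In Molm13, 3 and 2 counts in shCtrl against 10 and 10 in shPRMT9 gave a pooled ratio of 4 (exact 95% interval 1.46 to 13.6), and the gene was not tested in that line. The fit of all 8 libraries gave an adjusted p of 0.012 for TLR7 in Molm13, and fits of Molm13 alone without shCtrl library 1, shCtrl library 2 or shPRMT9 library 2 gave 0.056, 0.086 and 0.066.

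TLR3 (ENSG00000164342, chr4:186069152-186088069, plus strand) had 2 and 10 counts in Molm13 shCtrl and 18 and 12 in shPRMT9, a pooled ratio of 2.5 (exact 95% interval 1.24 to 5.36, adjusted p = 0.024 in the fit). In both lines, shPRMT9 had both libraries over the filter's limit and shCtrl did not, so the p-values of TLR3 are a description. The Molm13 value was 0.54 without shCtrl library 1 (adjusted p = 0.45) and 0.91 without shPRMT9 library 1 (adjusted p = 0.32), with adjusted p from 0.0026 to 0.445 over all alternatives. In THP1 its groups overlapped, with 21 and 5 counts in shCtrl and 25 and 19 in shPRMT9 (0.84, SE 0.455, adjusted p = 0.16). Without THP1 shCtrl library 1 this was 2.26 (adjusted p = 0.0061), with adjusted p from 0.00614 to 0.913 over all alternatives. In THP1 its control libraries differed from each other by more than its shPRMT9 libraries did.

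The lines differed in their starting levels. In shCtrl, 5 genes were higher in THP1 by a fold change above 1.5 with an adjusted p below 0.05, and 2 were higher in Molm13, where 28.4% and 31.1% of all 19288 genes in the fit of 8 libraries passed in these directions. TLR4 was 20.9-fold higher in THP1 (adjusted p = 9e-67), TLR2 5.59-fold (adjusted p = 3.6e-61) and CD14 3.55-fold (adjusted p = 0.00021). TLR5 and TLR7, with 5 pooled counts each in Molm13, were higher in THP1 by ratios of 10 (exact 95% interval 4.08 to 31.8) and 3.19 (1.17 to 10.8). TLR1 was 2.72-fold higher in Molm13 (adjusted p = 9.8e-16) and LY96 2.09-fold (adjusted p = 0.0076), and without Molm13 shCtrl library 1 neither LY96 nor TLR7 passed. TLR7 also failed without Molm13 shCtrl library 2 or THP1 shCtrl library 1. TLR6 was 1.49-fold higher in Molm13 (adjusted p = 1.2e-06), just under the limit, and TLR3 and TLR8 did not pass (adjusted p = 0.26 and 0.92). TLR6 passed without Molm13 shCtrl library 2 or THP1 shCtrl library 1, and TLR3 without Molm13 shCtrl library 2 or THP1 shCtrl library 2. The line and the table it came in cannot be told apart.

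A difference between the lines in the effect of shPRMT9 was found for CD14, with the higher log2 fold change in THP1, and for TLR4, with the lower one in THP1. This was 1 of the 10 genes in each direction, while 22.8% of all 19288 genes had the higher and 19.4% the lower value in THP1. For TLR1 the difference was -0.20 (SE 0.191, adjusted p = 0.44) and for TLR2 -0.086 (SE 0.0828, adjusted p = 0.45). TLR8 (0.83, SE 0.545, adjusted p = 0.24), TLR7 (-0.79, SE 0.842, adjusted p = 0.50) and TLR3 (-0.45, SE 0.713, adjusted p = 0.68) did not pass either, with errors of 0.545 or more. For TLR8 the value was 1.43 without Molm13 shCtrl library 1 (adjusted p = 0.041), with adjusted p from 0.0412 to 0.854 over all alternatives.

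**Figure D4:**
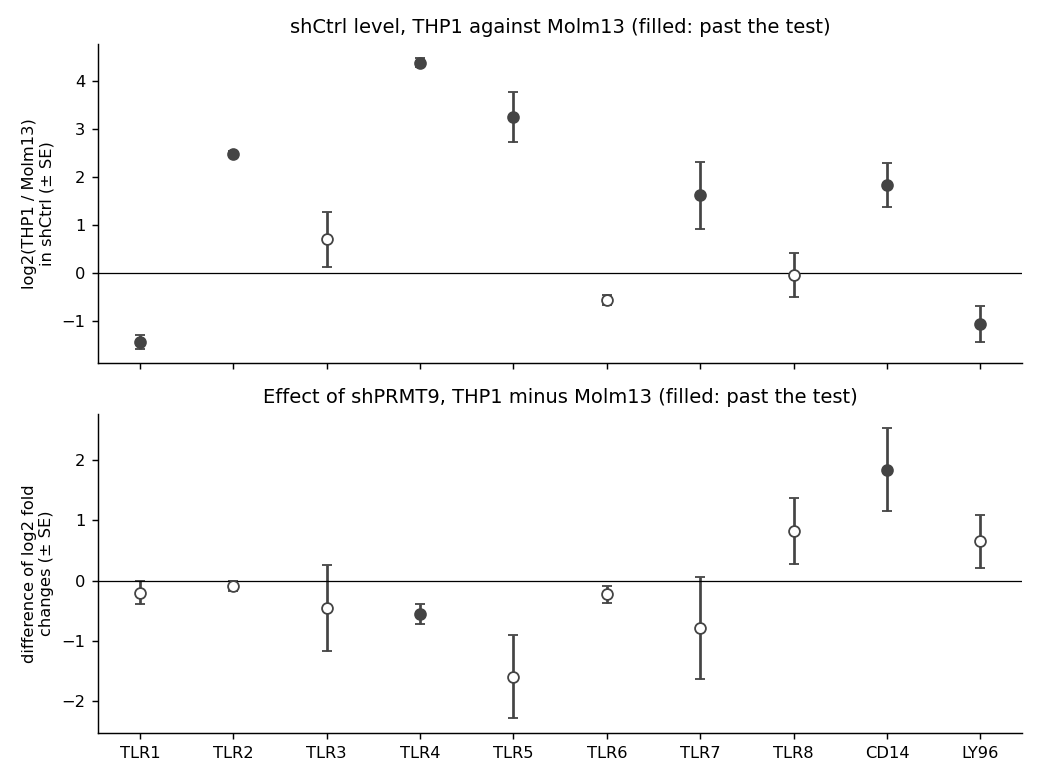
Top, log2 ratio of THP1 to Molm13 in shCtrl (± SE); bottom, log2 fold change of shPRMT9 in THP1 minus that in Molm13 (± SE), both from the fit of 8 libraries. Filled points passed the test; TLR4 is the highest point in the top panel (4.39), and TLR4 (-0.55) and CD14 (1.84) are the filled points in the bottom panel.

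Around the receptors, 58 further genes of the pathway were listed by role, of which 48 were tested in Molm13 and 50 in THP1. In Molm13, 32 of them rose and 9 fell, with 13 DEGs higher and 2 lower and a median log2 fold change of 0.269. In THP1, 29 rose and 4 fell, with 15 DEGs higher and 0 lower and a median of 0.328. The shares of all genes are those given above for each line. TLR9 and TLR10, the remaining Toll-like receptors, had at most 8 counts in any library and were not tested.

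Among accessory and trafficking genes, 6 of 9 tested rose and 1 fell in Molm13, and 5 of 9 rose in THP1. The DEGs were LY86, which encodes the partner of the receptor-like protein CD180, and TASL, which links an endosomal transporter to IRF5, in Molm13 (0.74 and 0.59), and the scavenger receptor CD36 in THP1 (0.81). Of 5 adaptors tested, 3 rose in Molm13 and 2 in THP1. TICAM1 was a DEG in both lines (0.74 in Molm13 and 0.60 in THP1), and MYD88, with 1006 and 1041 counts in THP1 shCtrl and 2023 and 2061 in shPRMT9, was one in THP1 (1.09).

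Of the 15 kinases and ubiquitin ligases, 6 rose and 6 fell in Molm13, and 6 rose and 3 fell in THP1. Of all genes tested, 33.4% rose and 33.5% fell in Molm13, and 19.0% and 18.6% in THP1. Nothing is read from these counts. In Molm13, IRAK1, the kinase recruited by MYD88, fell from 3663 and 3525 counts to 1451 and 1704 (-1.19), and CHUK, the alpha subunit of the IκB kinase, from 1989 and 1907 to 696 and 825 (-1.36). IKBKE, a kinase upstream of interferon regulatory factors, was a DEG in Molm13 (0.63) and in THP1 (0.67). Of 5 transcription factors, 4 rose and 1 fell in Molm13, and 3 rose and 1 fell in THP1. IRF7, which drives type I interferon genes, was the DEG of this group in both lines (1.95 in Molm13 and 1.61 in THP1).

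All 7 genes of negative regulators were tested in both lines, 6 rose and 1 fell in Molm13, and 5 rose in THP1. TNFAIP3 (A20), which removes ubiquitin chains from signaling proteins, was a DEG in both (1.43 in Molm13 and 2.00 in THP1), as was NFKBIA, the inhibitor of NF-κB (1.27 and 1.11). SIGIRR, a receptor that dampens signaling, was a DEG in Molm13 (1.47), and ZC3H12A, a nuclease that degrades cytokine mRNA, in THP1 (1.75).

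Of 13 listed target genes, 7 were tested in Molm13 and 9 in THP1, and 7 and 8 of them rose. CCL3 in both lines and CCL4 in THP1 passed the filter through their shPRMT9 libraries alone, so the counts and medians of this group are a description. The median log2 fold change was 1.36 in Molm13 and 2.71 in THP1. The chemokine CXCL10 rose from 24 and 24 counts to 322 and 387 in Molm13 (3.88) and from 44 and 37 to 492 and 458 in THP1 (3.64). The highest and lowest DEGs beside it were the chemokine CCL3 (2.28), the adhesion molecule ICAM1 (1.36) and the prostaglandin synthase PTGS2 (1.13) in Molm13, and the chemokine CCL2 (4.29), ICAM1 (2.60) and the cytokine TNF (1.32) in THP1. CCL4, named here after its values were seen, had 0 counts in all shCtrl libraries and 9 and 19 in Molm13 and 14 and 14 in THP1 shPRMT9. With 3 counts per control library taken as a floor, the ratios were 4.58 in Molm13 and 4.98 in THP1. These ratios leave out counting error in the shPRMT9 libraries, and CCL4 was not tested in Molm13. With CCL4 at this ratio the THP1 median was 2.68.

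**Figure D5:**
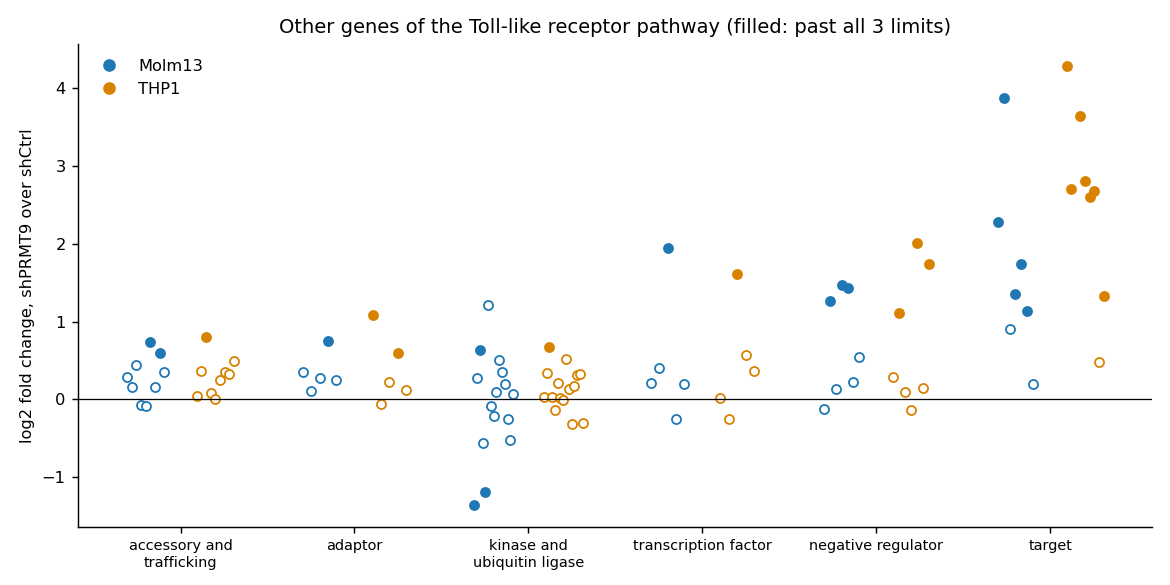
Log2 fold change of shPRMT9 over shCtrl for the pathway genes tested, by role and line; each point is a gene, filled where all 3 limits were met, and CCL4, with controls at 0, is left out. Target genes lie above 0 in both lines, and the filled points below 0 are IRAK1 and CHUK in Molm13.

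Some markers of cell type also changed with shPRMT9, in both directions. The shares of all genes that were DEGs are those given above for each line. The summed level of 8 myeloid markers was 1290 to 1300 CPM in Molm13 shCtrl and 1900 in shPRMT9, and 2630 to 2670 against 3920 to 4080 CPM in THP1, with 3 DEGs higher and 0 lower in Molm13 and 3 higher and 1 lower in THP1. The largest part of this sum was LYZ, at a mean of 634 CPM in shCtrl and 1000 in shPRMT9 in Molm13 and 1890 and 3080 in THP1. ITGAM (1.95 in Molm13 and 1.15 in THP1) and CSF1R (2.06 and 1.03) were DEGs that rose in both lines. MPO fell in both lines (-0.56 in Molm13 and -0.82 in THP1), FCGR1A fell in Molm13 (-0.44) and CEBPA in THP1 (-0.12). The sum of 8 monocyte and macrophage markers went from 62.9 to 67.8 CPM in Molm13 shCtrl to between 88.3 and 91 in shPRMT9, with 0 DEGs, and from between 71 and 72.8 to between 166 and 168 CPM in THP1, with 4 DEGs, all higher. In Molm13 this sum was nearly all S100A8 and S100A9, at means of 30.4 and 33.6 CPM in shCtrl. The sum of 5 B cell markers was 42.7 to 42.9 CPM in Molm13 shCtrl and 39.5 to 40.7 in shPRMT9. In THP1 it rose from between 4.02 and 4.64 to between 12.6 and 14.1 CPM, mostly PAX5, with MS4A1 at 0 or 1 counts. The sums of 3 T cell, 3 dendritic cell and 3 erythroid markers were at most 0.611 CPM in every library, with CD3E and CLEC9A at 0 in THP1. The part of these markers in the changes of the receptors was not tested.

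TLR1 and LY96, the genes that met the DEG rule in both lines, were compared with 15931 genes by their log2 CPM over the 8 libraries. The genes most like TLR1 were BLZF1, BTN3A1 and WIPF1 (Pearson r of 0.9969, 0.996 and 0.9958), and those most like LY96 were GALNT6, MOV10 and CCL5 (0.9928, 0.9894 and 0.9893). With 8 libraries in 4 groups, these values describe a shared pattern of line and knockdown, and they carry no test.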

How the data were processed

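RNA-seq libraries (mRNA kit, HiSeq sequencing) of the 2 lines fell into 4 groups of 2 by their labels, 8 in all. The authors deposited unnormalized read counts per gene, with 1 table per line. The submitters' processing notes name TopHat2 2.0.8, HTSeq 0.11.2, edgeR 3.30.3 and hg38, and the strand setting of the counting is not given in the sources used here. Totals were 18720950 to 27356870 counts per library, and 0 columns of other samples were present.

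From the counts onward, each line was fitted alone with edgeR 4.0.16 in R 4.3.3 (TMM, filterByExpr with a minimum of 10 counts and a total of 15, quasi-likelihood test, Benjamini-Hochberg adjustment over all genes tested, no replicate block). The DEG rule (adjusted p below 0.05, fold change above 1.5 and an RPKM above 1 in at least 1 library) follows the study's methods, with its upper fold change limit read as above 1.5. RPKM in both lines used the exon lengths of the Molm13 table. CPM and RPKM used library totals over the genes tested, adjusted by the TMM factors. Each SE was taken as the size of the log2 fold change over the root of the F statistic. The difference between the lines and the shCtrl comparison came from 1 fit of all 8 libraries over genes in both tables. Ratios of pooled counts have exact 95% Poisson intervals, which cover counting error only. Floors of 3 counts allow for counting error in the control libraries alone. The tests were tried on simulated counts with known changes.

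The genes and lists were chosen with earlier results of these data known. Named are all 10 genes, PRMT9, TLR9 and TLR10, genes overlapping the 10, per role and line the 2 highest and the 2 lowest DEGs of the pathway list, and for each gene that met the DEG rule in both lines the 3 genes most correlated with it. Alternatives were DESeq2 1.42.0 and limma 3.58.1 voom, other scalings, no filter, other limits, the replicate block, a joint fit and leaving out each library. Promoter windows came from RefSeq (GRCh38.p14), and transcripts for shared sequence from GENCODE 29. Promoters of TLR1, TLR7 and LY96 and protein sequences were not used here.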

Additional observations from a re-analysis of the deposited data

Results flagged for a closer look

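TLR4 responded differently to shPRMT9 in the 2 lines, by a test of the difference itself in the fit of 8 libraries (log2 fold change in THP1 minus that in Molm13 -0.55, SE 0.163, adjusted p = 0.0036). TLR4 fell in both THP1 shPRMT9 libraries relative to both controls, and its Molm13 groups overlapped. The same test gave a difference of 1.84 for CD14 (SE 0.689, adjusted p = 0.024), which rose in THP1 and had 4 to 8 counts in the Molm13 libraries. With DESeq2 the CD14 difference had an adjusted p of 0.051. The TLR4 difference was -0.36 without Molm13 shCtrl library 1, and that of CD14 was 1.45 without Molm13 shCtrl library 2. Of all genes, 22.8% had the higher and 19.4% the lower log2 fold change in THP1 by the test of the difference. With 2 libraries per group, no library could be tested as standing apart from its group.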

How the results depend on the processing

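The DEGs among the 10 genes, 3 in each line, were the same genes under DESeq2's size factors, library size alone, no filter on low counts, DESeq2, limma voom and the replicate block. They were also all kept when any library was left out, with 3 called each time in Molm13 and 3 to 4 in THP1, the added gene being TLR6. Without the RPKM minimum, 6 were called in Molm13 and 6 in THP1. The count of genes whose effect differed between the lines was 2; it was 1 with DESeq2 and 1 to 3 when a library was left out. Of the pathway genes, 13 to 16 were called in Molm13 and 14 to 15 in THP1 without a library, and 5 to 8 of the 10 genes differed between the lines in shCtrl.

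A direction turned when 1 library was left out in 4 cases, none of them past the test in either form. These were TLR4 in Molm13 without Molm13 shCtrl library 1 (-0.069, with a range of -0.069 to 0.40 without each library), the difference between the lines of TLR3 without Molm13 shCtrl library 1 (0.27) or THP1 shCtrl library 1 (0.92, range -2.06 to 0.92), and that of TLR8 without Molm13 shCtrl library 2 (-0.30, range -0.30 to 1.43). Of the other alternatives for single genes, 19 lost the call, 5 gained it and 315 changed neither. With DESeq2, the calls of TLR3 (adjusted p = 0.20) and TLR8 (0.096) in Molm13, of TLR5 (0.077) and TLR7 (0.20) in THP1, and of the CD14 difference (0.051) were lost. The cause was not tested. A fit without a library assumes that the lone sample of a group varies like the others. No scaling moved the median of all genes by over 0.1.

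No shared shift was seen between libraries of the same number, whose deviations correlated at -0.087 in Molm13 and -0.0146 in THP1. With 2 libraries per group, this cannot settle whether they were paired. With the replicate block, 3711 genes were DEGs in Molm13 against 3744 without it, and 1019 against 1013 in THP1, and the same 3 of the 10 genes were called in each line. Between the lines in shCtrl, TLR6 passed with the block and TLR7 did not. Depth limits TLR3, TLR5, TLR7 and TLR8 in both lines and CD14 in Molm13, with at most 59 counts in any library. LY96 was also low, with 17 to 68 counts in Molm13 and 13 to 62 in THP1. It passed the RPKM minimum with an exon length of 607 bases, against 4353 for TLR8.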
